A study of Arabidopsis thaliana with 38 samples.

Results

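The line labelled UAS-JKD was compared with the line labelled SHR in sorted cells of the Arabidopsis thaliana root ground tissue, which is made of cortex and endodermis. The arrays were chosen by their titles alone: 3 UAS-JKD arrays and the 3 one-cycle SHR arrays, which are 6 of the 38 arrays of the series. No measured value entered that rule, but the comparison was set with earlier results of these data known. All 22746 probe sets other than controls were considered, and 15777 passed the filter on dim probe sets. The other groups used are 3 one-cycle arrays each of wild type (WT), UAS-SCR, UAS-BLJ, UAS-NUC, UAS-MGP and UAS-IME, and 3 two-cycle arrays each of WT and SHR.

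Every one of these plants was of the C24 ecotype, was grown on standard medium and was taken as a seedling root at 5 days. All carried the fluorescent marker J0571, a GAL4 enhancer trap whose driver is active in the ground tissue and which was used to sort the cells. A gene placed behind UAS is transcribed where that driver is active, so the sorted cells are also the cells in which the construct should be on. The genotype of both compared groups reads SHR, and that of the UAS-JKD group adds JKD driven by UAS. The labels do not say whether SHR stands for a mutant, how many independent lines of a construct were used, or whether replicates came from separate plants, so the tests cover the spread between these arrays only.

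JACKDAW (JKD) is a zinc finger protein of the BIRD group that acts with the GRAS proteins SHORT-ROOT and SCARECROW in the ground tissue. SHORT-ROOT moves from the stele into the adjacent layer, where together with SCARECROW it triggers the division that separates endodermis from cortex. JKD limits that division to 1 layer, and from the cortex it also affects the pattern of root hair cells in the epidermis. Levels below are deposited signals on a linear scale, and differences are log2 differences of signal + 16 with their standard error (SE). Calls are limma tests with an adjusted p (Benjamini-Hochberg) under 0.05.

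The probe set of JKD (AT5G03150, chromosome 5) was lower in the arrays labelled UAS-JKD than in SHR. Its signal was 119, 98.2 and 88.9 in UAS-JKD and 213, 175 and 257 in SHR. Each UAS-JKD array lay below each SHR array, and the difference was -0.96 ± 0.22 (adjusted p = 0.00169). In WT the signal was 151, 169 and 123, which was not called apart from UAS-JKD (-0.47 ± 0.22, adjusted p = 0.11). Over the other 5 UAS lines it ran from 19.4 to 236, and UAS-JKD was higher than their mean by 0.51 ± 0.17 (adjusted p = 0.0334). Against SHR the probe set was at -2.55 in UAS-IME, -2.33 in UAS-BLJ, -1.50 in UAS-NUC, -0.75 in UAS-MGP and -0.21 in UAS-SCR. A level below SHR was thus not particular to UAS-JKD. For UAS-JKD such a level goes against the label, and the labels do not say whether the construct holds the sequence that this probe set reads. An exchange of samples was not tested, and it would change what every value under the label stands for. For that reason the arrays are referred to by their label, and directions below belong to the arrays under it. The annotation named no probe set for the genes SHR, SCR, IME, NUC and MGP of the other labels. BLJ, the remaining label, is read by the probe set of AT1G14580, which is given with the list of radial patterning below.

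**Figure D1:**
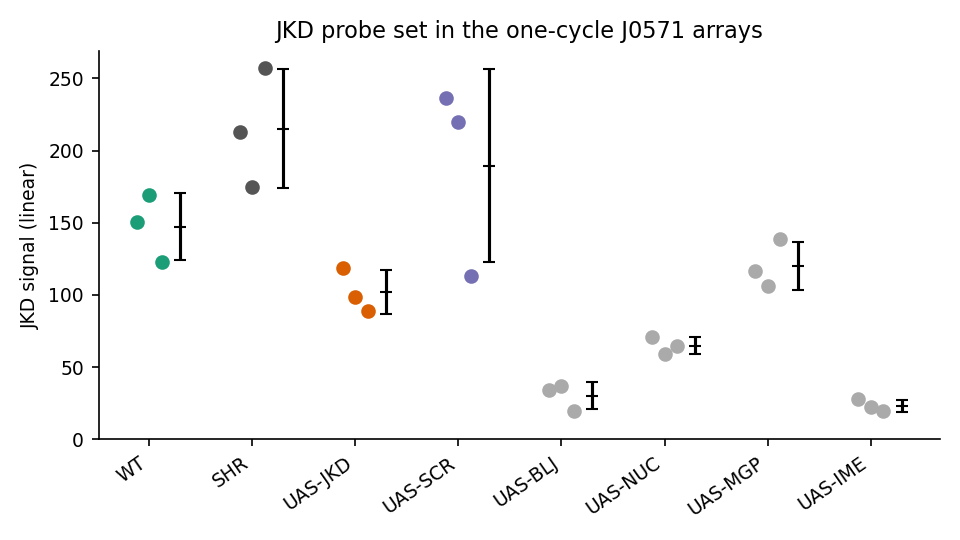
Linear signal of the JKD probe set in each of the 24 one-cycle arrays by group, 1 point per array, with the mean and SD beside the points. The 3 UAS-JKD points lie between 88.9 and 119, below the 3 SHR points at 175 to 257.

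The control probe sets set the UAS-JKD arrays apart from the SHR arrays, and the values stand here because they bear on every count against SHR. The bacterial spike-ins bioB and cre are added to the hybridisation mix in set amounts, and the log2 ratio of bioB over cre was -7.98 ± 0.05 (SD, n = 3) in UAS-JKD and -5.48 ± 0.16 in SHR. Among the other one-cycle groups UAS-SCR was at -8.13 ± 0.18, and the remaining 5 lay between -5.60 and -5.13. Only the meristem BLJ arrays, at -7.97, shared that level among the 13 groups. The spike-ins bioC, bioD and cre had mean log2 signals of 10.46, 12.33 and 14.08 in UAS-JKD. In SHR they were at 9.39, 11.07 and 13.13, and in UAS-SCR at 10.77, 12.75 and 14.43. The spike-in bioB alone went the other way, at 6.10 in UAS-JKD, 6.31 in UAS-SCR and 7.65 in SHR. The shift in the ratio thus belongs to bioB and was not shared by bioC and bioD. The 3' over 5' ratio of actin, which rises when labelled RNA is short, was 2.42 ± 0.57 in UAS-JKD, 2.15 ± 0.16 in UAS-SCR, 0.94 ± 0.03 in SHR and -0.35 ± 0.60 in WT on the log2 scale. The same ratio of GAPDH was 1.22 ± 0.78 in UAS-JKD and -0.05 ± 0.16 in SHR. The 10th percentile of signal was 9.29 in UAS-JKD and 3.34 in SHR, and it was 8.38 to 9.55 in UAS-SCR, UAS-NUC, UAS-MGP and UAS-IME. Against SHR, this profile and the genotype cannot be told apart, whereas the comparison with UAS-SCR lies within 1 profile.

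**Figure D2:**
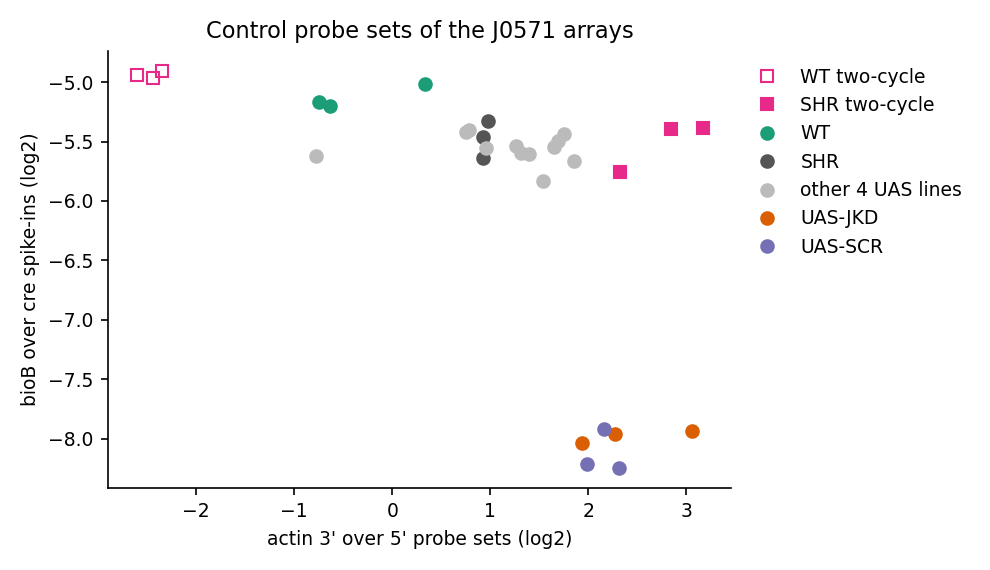
Log2 ratio of the spike-ins bioB over cre against the log2 3' over 5' ratio of actin in the 30 J0571 arrays, 1 point per array. The UAS-JKD and UAS-SCR arrays lie near -8 on the spike-in axis and all others above -6.

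The UAS-JKD arrays correlated with each other at 0.957 to 0.969 and with the UAS-SCR arrays at 0.915 to 0.959 across probe sets, which are not independent replicates. Their median correlation with SHR arrays was 0.884. On the first principal component of the 24 arrays, which held 37.9% of the variance, UAS-JKD 1 and 2 were at -33.5 and -35.2 and UAS-JKD 3 at -60.9. UAS-SCR 3 also stood apart, at -85.4, from UAS-SCR 1 and 2 at -27.6 and -25.2. Counts below are therefore given without UAS-JKD 3 and UAS-SCR 3 as well, an alternative chosen after seeing the data.

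Against SHR, 7287 probe sets were called, 46.2% of the 15777 tested. The line labelled UAS-JKD was higher in 3697 (23.4%) and lower in 3590 (22.8%). At 2-fold or more 2704 were called (17.1%), 1460 of them higher and 1244 lower. In 6951 of the 7287, the 3 arrays of each group did not overlap. This was counted among called probe sets only, not over all tested, so it largely repeats the call and is no added support. Without UAS-JKD 3 and UAS-SCR 3 the count was 6079. The same fit called 7524 probe sets for UAS-SCR against SHR, 6423 for UAS-NUC, 3333 for UAS-IME, 1756 for UAS-BLJ and 1431 for UAS-MGP, and these comparisons all share the SHR arrays. The genes named next were the 12 highest and the 12 lowest that met the rule for bright, non-overlapping probe sets of 1 gene. Of the probe sets called at 2-fold, 1260 carried no gene name or several and could not be named.

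The highest gene was AT3G28550, on chromosome 3. Its signal was 932, 2859 and 2012 in UAS-JKD against 110, 23.4 and 40.3 in SHR, a difference of 4.76 ± 0.69 (adjusted p = 3.84e-05). Every UAS-JKD array was at least several times brighter than the brightest SHR array, and WT was as low as SHR, at 113, 24.9 and 57.1. GSTU28, a glutathione S-transferase of the tau class that joins glutathione to reactive compounds, was at 1116, 1620 and 1885 against 137, 48.4 and 72.4 (3.99 ± 0.53, adjusted p = 1.45e-05). GH9C1, an endoglucanase that trims cellulose and acts in growing root hairs, was at 348, 395 and 526 against 41.6, 20.9 and 25.2 (3.29 ± 0.37, adjusted p = 3.03e-06). In both genes all arrays of the line were above all SHR arrays, which the rule for named genes required. TBL21, of a family that acetylates cell wall polysaccharides, rose by 3.32 ± 0.45. The other 8 of the 12 are AT2G45750 (4.14), AT5G17820 (3.73), AT3G43960 (3.63), AT1G30870 (3.56), AT3G49960 (3.55), AT2G41970 (3.38), AT1G05320 (3.29) and AT3G59370 (3.19), for which the annotation gives no symbol.

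These 12 genes were not particular to the line. Against UAS-SCR none of the 12 was called, with differences of 0.38 to 1.27. UAS-SCR was higher than SHR in all 12, by 2.17 to 4.12, and UAS-NUC in 11. Against the mean of the other 5 lines UAS-JKD was higher in all 12, by 1.74 to 3.37, and against WT in all 12, by 2.66 to 4.84. WT differed from SHR in 1 of the 12, AT1G30870, which was lower in WT by 1.28. These comparisons share arrays with the one that picked the 12, so part of the counts is built in. Their values are set side by side only.

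**Figure D3:**
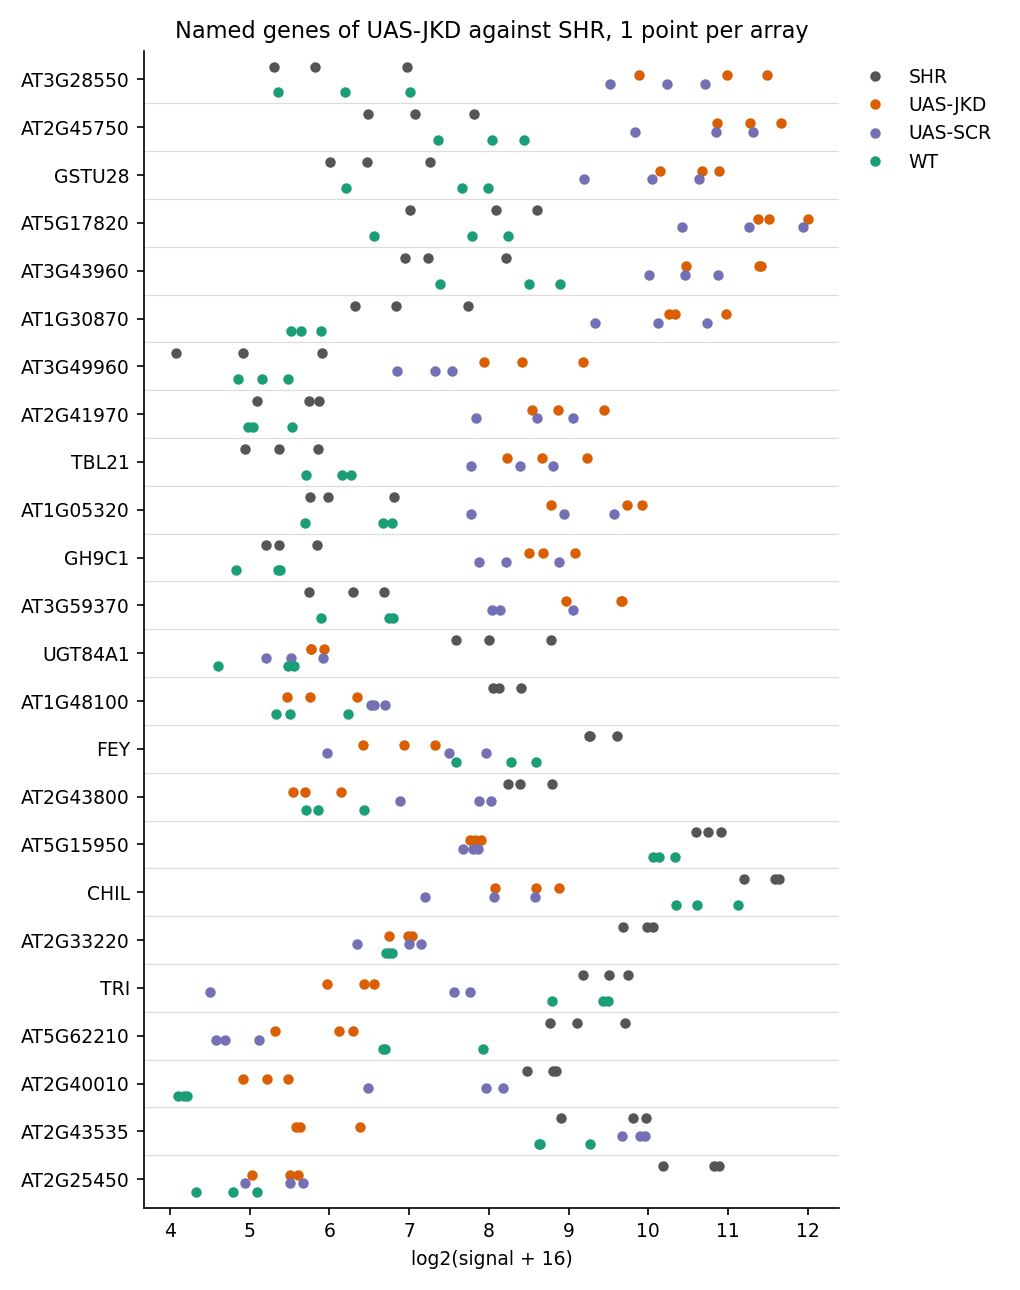
Signal of the 12 highest and 12 lowest named genes of UAS-JKD against SHR on the log2(signal + 16) scale, 1 point per array, for SHR, UAS-JKD, UAS-SCR and WT. In the upper 12 genes the UAS-JKD and UAS-SCR points lie to the right of SHR and WT, and in the lower 12 the UAS-JKD points lie to the left of SHR.

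The lowest gene was AT2G25450, on chromosome 2, at 16.7, 32.6 and 29.6 in UAS-JKD against 1801, 1143 and 1870 in SHR (-5.25 ± 0.32, adjusted p = 5.92e-10). UAS-SCR, at 34.7, 14.7 and 29.6, and WT, at 18.2, 11.7 and 3.98, were as low as UAS-JKD. The arrays of UAS-BLJ, UAS-NUC, UAS-MGP and UAS-IME lay between 325 and 1270, so SHR was not the only high group. CHIL, a chalcone isomerase-like protein that raises the output of the flavonoid pathway, was at 454, 370 and 255 against 3064, 3185 and 2331 in SHR (-2.96 ± 0.27, adjusted p = 2.62e-07). WT lay between them, at 1282, 2219 and 1555. TRI, a tropinone reductase-like enzyme, fell by 3.16 ± 0.56, from 563, 714 and 839 in SHR to 70.7, 77.9 and 46.6. UGT84A1, which adds glucose to hydroxycinnamic acids, fell by 2.30 ± 0.36, and FEY, a gene first described for the shoot meristem, by 2.49 ± 0.44. AT2G33220 stood at 116, 91.3 and 111 against 996, 806 and 1047 in SHR (-2.98 ± 0.17), and WT was at 94.6, 88.9 and 91.0. AT5G15950 was at 202, 223 and 211 in UAS-JKD and 188, 216 and 208 in UAS-SCR, against 1915, 1538 and 1708 in SHR (-2.92 ± 0.18). The other 5 are AT2G43535 (-3.70), AT2G40010 (-3.50), AT5G62210 (-3.29), AT2G43800 (-2.68) and AT1G48100 (-2.34). The chromosome tags of the loci place 6 of these 12 and 2 of the 12 highest on chromosome 2.

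Of the 12 lowest, 9 were not called against UAS-SCR, and 3 were lower there too: AT2G43535 (-3.98), AT2G40010 (-2.34) and AT2G43800 (-1.80). All 12 were lower than the mean of the other 5 lines, by 0.91 to 4.02 on the log2 scale. WT was lower than SHR in 11 of the 12, TRI being the exception, and in 2763 of all 15777 probe sets. Against WT, UAS-JKD was lower in 6, higher in AT2G40010 alone and not called in 5. The 12 were picked for high SHR and low UAS-JKD signals in these same arrays. Part of these counts is thus built in, and the values are set side by side only.

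The lists of cell type markers and pathways are read against the background of 23.4% higher and 22.8% lower, and against a median over all probe sets of 0.00. The middle of all differences ran from -0.50 to 0.49. In the list of radial patterning, 3 of 21 genes were tested: JKD was lower, SCL23 (AT5G41920), a GRAS protein related to SCARECROW, was at 0.08 ± 0.23, and AT1G14580 at -0.06 ± 0.39, neither called. AT1G14580 was dim in both groups, at 1.29, 51.9 and 2.82 in UAS-JKD and 17.9, 20.9 and 3.86 in SHR, and bright in WT, at 212, 166 and 210. In UAS-BLJ against SHR 1 of the 3 genes was higher, AT1G14580 at 3.97, and 1 was lower.

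Both measured root hair genes were higher in the line labelled UAS-JKD. EXPA7, an expansin that loosens the wall of growing root hairs, was at 292, 392 and 519 against 61.6, 22.3 and 43.7 in SHR (2.86 ± 0.46, adjusted p = 0.000107). EXPA18, its close relative, was at 312, 318 and 443 against 78.5, 69.8 and 56.9 (2.14 ± 0.35, adjusted p = 0.000111). The groups did not overlap in either gene, and the cells were sorted for the ground tissue, which root hairs are not part of. The 2 genes are all that could be named of the 22 in the list of epidermis and root hairs, and both are expansins. Their summed signal was 604 to 962 in UAS-JKD, 339 to 804 in UAS-SCR, 92.0 to 140 in SHR and 37.9 to 104 in WT. Fewer or more cells of a type and less or more RNA per cell cannot be told apart in such samples, and the part of epidermal cells in the differences was not tested. Against UAS-SCR the genes were not called (0.65 and 0.54), and against the other 5 lines they were higher by 2.21 and 1.72.

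Enzymes of wall loosening more widely were called more often upward. Among 22 tested expansins and xyloglucan enzymes, 11 were higher and 2 lower, with a median of 0.66. Beside EXPA7 and EXPA18, XTH32, which cuts and rejoins xyloglucan, rose by 1.55 ± 0.26 (adjusted p = 0.000153). EXPA20 was at 90.8, 77.3 and 61.7 against 255, 267 and 376 in SHR and fell by 1.76 ± 0.25 (adjusted p = 3.33e-05). Without UAS-JKD 1 the count of higher members was 7, and without UAS-JKD 3 and UAS-SCR 3 it was 8 of 21.

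Endodermis genes did not move as 1 group. Of 6 tested, GSO1, a receptor kinase needed for a sealed Casparian strip, was higher, at 615, 576 and 614 against 364, 227 and 252 (1.08 ± 0.28, adjusted p = 0.00401). AT4G28100 was lower, at 351, 334 and 211 against 748, 606 and 851 (-1.27 ± 0.26), and so was AT2G39430 (-0.96 ± 0.32, adjusted p = 0.018). The latter call was lost without UAS-JKD 2 (adjusted p = 0.102) or SHR 2_1 (adjusted p = 0.0678). AT4G34600, AT1G61590 and AT4G13580 were not called, at 0.46, -0.31 and -0.18. The summed signal of the 6 genes was 1409 to 1753 in UAS-JKD, 1457 to 2147 in SHR and 7855 to 11242 in WT, so the line and SHR overlapped. The sum is carried by the bright members, and AT4G28100 and AT4G34600 were themselves at -0.90 and -0.60 in WT against SHR. The median of the list was -0.25.

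Of 5 cortex genes, AT5G02000 (0.75 ± 0.21) and AT3G21670 (0.42 ± 0.16) were higher and AT1G62500 was lower. AT1G62500 was at 409, 551 and 222 against 1285, 1415 and 1622 in SHR (-1.91 ± 0.44, adjusted p = 0.00198). The call of AT3G21670 (adjusted p = 0.0414) was lost without UAS-JKD 2 (0.079), UAS-JKD 3 (0.167), SHR 2_2 (0.202) or SHR 2_3 (0.105). AT1G09750 (0.59) and AT1G62510 (-0.20) were not called. AT1G09750 was called under median centring (adjusted p = 0.0486), with the replicate block in the 24-array fit (0.0393), without SHR 2_1 (0.0317) and without UAS-JKD 3, where the difference was 0.92 (0.00517). The summed signal was 2375 to 3611 in UAS-JKD and 3520 to 4052 in SHR, so the groups just overlapped.

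Genes of auxin response were called in 1 direction. Auxin conjugating enzymes of the GH3 family and the LBD proteins of lateral root founding are induced by auxin. Of 9 tested, 5 were higher and none lower, with a median of 0.97. GH3.1 was at 36.6, 35.3 and 51.5 against 8.70, 2.77 and 11.2 (1.28 ± 0.34, adjusted p = 0.00511). WES1, also of the GH3 family, was at 598, 564 and 756 against 388, 244 and 322 (0.98 ± 0.29, adjusted p = 0.0101). All UAS-JKD arrays lay above all SHR arrays in both. LBD29 (1.23 ± 0.38), GH3.17 (1.02 ± 0.31) and IAA30 (0.97 ± 0.34), a repressor of auxin response, were the others. LBD16, GH3.3, IAA18 and IAA29 were not called, at 0.27, 0.04, 0.34 and 0.33.

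The auxin count depended on the scaling and on single arrays. Under quantile normalization 3 members were higher, without GH3.1 (adjusted p = 0.0549) and LBD29 (adjusted p = 0.0759). Without UAS-JKD 3 the count was 3, with IAA30 at 0.143 and GH3.17 at 0.0606, and without SHR 2_2 it was 3, with IAA30 at 0.0786 and WES1 at 0.0565. Without UAS-JKD 2, LBD29 was at an adjusted p of 0.0914. Without UAS-JKD 3 and UAS-SCR 3 together, 4 of 8 were higher.

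All 4 tested flavonoid genes were lower. UGT78D2 and UGT78D1 attach sugars to flavonols. UGT78D2 was at 257, 198 and 273 in UAS-JKD, 202, 198 and 237 in UAS-SCR and 1106, 1184 and 663 in SHR (-1.92 ± 0.24, adjusted p = 6.98e-06). UGT78D1 was dim everywhere, at 5.87, 5.04 and 1.26 against 34.9, 84.4 and 53.7 (-1.83 ± 0.36). AT1G06000 was at 1235, 1010 and 1076 against 3416, 2592 and 2383 (-1.31 ± 0.16), and CHIL is given above. The list was put together after CHIL, UGT78D1 and UGT78D2 had been seen to be lower, so its count is a description. In WT the list members were lower than SHR as well, by 0.66 to 1.98. The wider family of UDP-glycosyltransferases went both ways, with 5 of 29 higher and 6 lower. The count was 2 and 5 without SHR 2_2, and 3 higher without UAS-JKD 1 or without UAS-JKD 3. Its median, 0.06, turned to -0.17 under quantile normalization and to -0.04 under median centring.

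Plastid-encoded genes were the largest list, and 49 of 69 were higher and 1, psbE, was lower, with a median of 1.14. The photosystem I gene psaI was at 593, 1170 and 996 against 164, 232 and 165 (2.17 ± 0.26, adjusted p = 6.80e-06). The photosystem II gene psbA was at 141, 193 and 194 against 46.0, 26.1 and 45.7 (1.80 ± 0.22, adjusted p = 6.85e-06). The genes atpA, of the ATP synthase (1.65 ± 0.19), and ccsA, of cytochrome assembly (1.60 ± 0.19), were higher too. No array of either group overlapped in psaI or psbA. UAS-SCR exceeded UAS-JKD in the summed signal of the 69 genes, at 54181 to 69879 against 33742 to 55770, and SHR was at 25686 to 30746. At 2-fold or more, 38 of the 69 were higher than SHR in UAS-JKD, 53 in UAS-SCR, 31 in UAS-IME, 26 in UAS-MGP, 23 in UAS-NUC and 4 in UAS-BLJ, all against the same SHR arrays. The mean actin 3' over 5' ratio was above that of SHR in UAS-JKD, UAS-SCR, UAS-IME (1.64) and UAS-NUC (1.65) and below it in UAS-MGP (0.60) and UAS-BLJ (0.83). The UAS-MGP arrays were at 1.32, -0.78 and 1.26 and the SHR arrays at 0.92 to 0.98, so UAS-MGP 2 alone pulled that mean below SHR. In one-cycle WT against SHR, 29 of the 69 genes were called higher and 2 lower at any fold, with a median of 0.48. The WT summed signal was 32690 to 35979, above SHR, while its actin ratio of -0.35 was below that of SHR. The part of RNA length in the plastid counts was not tested. RCA, the only tested nuclear gene of photosynthesis, was at 422, 213 and 481 against 129, 130 and 95.4 (1.47 ± 0.42, adjusted p = 0.00861).

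**Figure D4:**
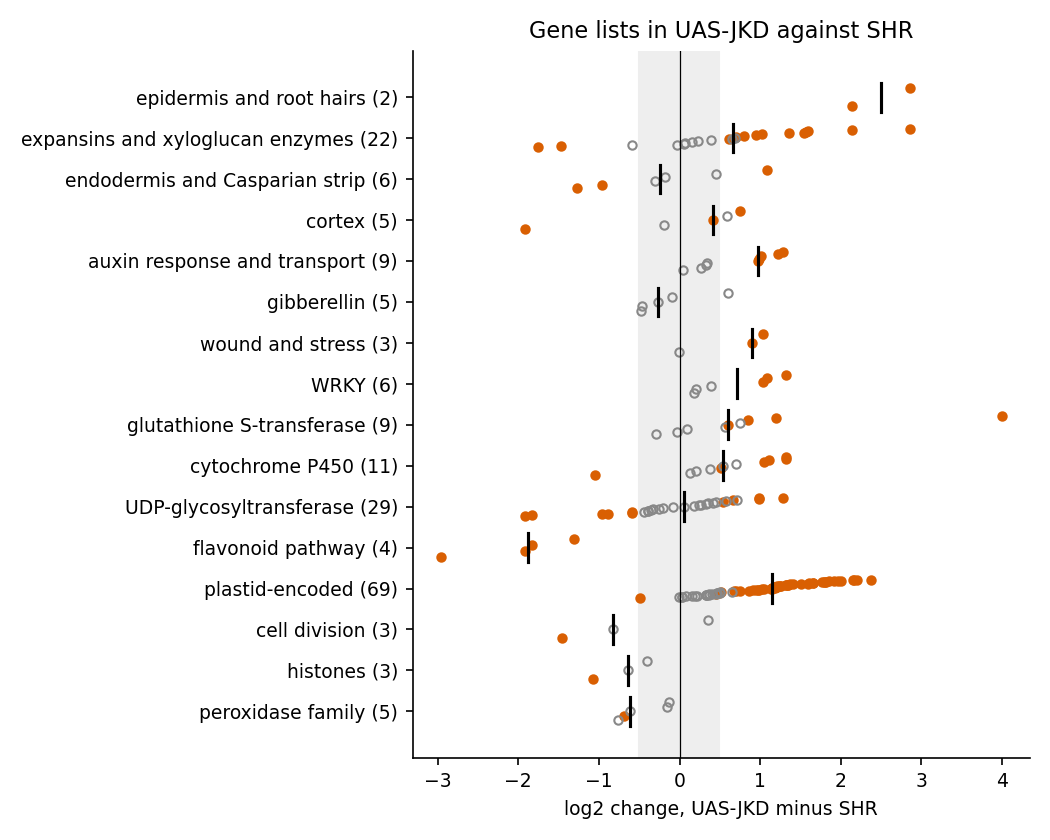
Log2 difference of UAS-JKD minus SHR for the tested members of 16 lists, 1 point per gene, filled where called, with the number tested in brackets and a bar at the median. The grey band is the interquartile range of all 15777 probe sets, -0.50 to 0.49, and most plastid-encoded points lie to its right.

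Among genes of detoxification and stress, 4 of 9 glutathione S-transferases were higher and none lower, with a median of 0.60. Beside GSTU28 these were GSTU22 (1.20 ± 0.32), GSTU26 (0.85 ± 0.25) and GSTU27 (0.60 ± 0.21). GSTU27 was not called without UAS-JKD 1 (0.094), UAS-JKD 2 (0.0628) or SHR 2_2 (0.101). Of 6 WRKY factors, which bind the promoters of defence genes, WRKY6 (1.32 ± 0.25), WRKY47 (1.09 ± 0.26) and WRKY53 (1.03 ± 0.33) were higher and none was lower. In the list of wound and stress, WRKY53 and the calmodulin-like gene CML38 (0.90 ± 0.30) were higher and the zinc finger gene STZ was not called (-0.01). Without SHR 2_2 neither was called, with WRKY53 at 0.0919 and CML38 at 0.118. WRKY53 was also lost without UAS-JKD 1 (0.0662) and CML38 without UAS-JKD 3 (0.13).

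Of 11 cytochrome P450 genes, whose products oxidise small molecules, 5 were higher and 1 lower, and 3 and 1 without SHR 2_2. CYP718 (1.32 ± 0.36), CYP71B23 (1.32 ± 0.28) and CYP78A9 (1.11 ± 0.24) were among those higher. CYP51G2 was at 42.8, 32.8 and 59.6 against 111, 105 and 110 in SHR and fell by 1.05 ± 0.19 (adjusted p = 0.000233). Of 3 tested jacalin lectins matched by name, JAL34 rose by 2.33 ± 0.46, from 2236, 1146 and 965 to 5818, 6480 and 8541. Both glucosinolate transporters matched by name, GTR2 (1.60 ± 0.40) and GTR1 (0.98 ± 0.25), were higher, with no overlap between the groups.

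Of 7 tested genes of cell division, histones and DNA replication, 2 were lower and none higher, a share near the background of 22.8%. AUR2, an Aurora kinase of mitosis, was at 118, 79.3 and 68.3 against 251, 309 and 243 (-1.46 ± 0.33, adjusted p = 0.0016). HTR12, the histone H3 of centromeres, was at 53.4, 44.2 and 35.9 against 96.1, 117 and 118 (-1.07 ± 0.23, adjusted p = 0.00102). In both genes the groups did not overlap. These were 1 of 3 tested genes of cell division and 1 of 3 histones. AUR1 (-0.83), the histone HTB2 (-0.64) and the replication gene PRL (-0.79) were not called, and SIM, which holds back mitosis, was at 0.35. HTB2 was called under median centring (adjusted p = 0.0437) and without UAS-JKD 2 (0.0255), SIM without SHR 2_1 (0.0189), and AUR1 (0.00789) and PRL (0.0249) in a fit on the 6 arrays alone. Of the 5 tested peroxidases matched by name, of the class that acts in the cell wall, PRXR1 was lower (-0.68 ± 0.19, adjusted p = 0.00727). That call was lost without UAS-JKD 3 (0.057), and none of the 5 was higher. The family was matched on symbols and synonyms only, so unmatched peroxidases may stand among the other genes. Those may include genes without a symbol among the 12 highest against SHR. The count does not speak for the whole family.

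Against UAS-SCR, the line with the closest control values, 368 probe sets were called, 2.33% of those tested. UAS-JKD was higher in 149 (0.944%) and lower in 219 (1.39%). Under median centring the split was 161 higher and 151 lower, so the share of higher calls went from 40.5% to 51.6%. At 2-fold or more 175 were called (1.11%), 60 higher and 115 lower, the latter being 0.729% of those tested. In 363 of the 368 the arrays did not overlap, which again was counted among the called only and largely repeats the call. Without UAS-JKD 1 the count was 180, without UAS-JKD 2 it was 192 and without UAS-SCR 1 it was 191. Without UAS-JKD 3 and UAS-SCR 3 it was 247. A fit on the 6 arrays alone called 15, and adding a block for the replicate number it called 363, of which 202 were among the 368 and ran in the same direction.

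Under the rule for bright, non-overlapping probe sets of 1 gene, the lowest was AT2G21045, at 80.2, 36.7 and 56.6 in UAS-JKD, 855, 1610 and 2410 in UAS-SCR and 387, 124 and 162 in SHR (-4.40 ± 0.54 against UAS-SCR, adjusted p = 9.29e-05). AT2G43535 was at 67.3, 33.6 and 31.7 in UAS-JKD, 939, 802 and 976 in UAS-SCR and 880, 465 and 991 in SHR (-3.98 ± 0.26, adjusted p = 1.50e-08). It was 382, 601 and 380 in WT and 543 to 1608 over the other 5 lines, so UAS-JKD was the only low group of the 8. AT2G19970 (-3.01 ± 0.45) and AT2G38240 (-2.87 ± 0.41) were lower as well. Upward, AT1G52060 was at 362, 502 and 1247 against 199, 10.6 and 226 (2.49 ± 0.55, adjusted p = 0.019), a call that was lost without UAS-JKD 3 (adjusted p = 0.0717). In SHR it was at 595, 665 and 615. AT5G10130 was at 737, 487 and 562 against 142, 51.6 and 148 (2.32 ± 0.42, adjusted p = 0.0036).

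XTH32 and sks15 were among the 4 highest genes against UAS-SCR that met the rule for bright, non-overlapping probe sets of 1 gene. XTH32 was at 263, 176 and 231 in UAS-JKD, 34.4, 30.1 and 48.4 in UAS-SCR and 104, 52.9 and 48.0 in SHR (2.16 ± 0.26 against UAS-SCR, adjusted p = 8.03e-05). It was 30.1 to 776 over the other 5 lines, and UAS-JKD did not differ from their mean beyond the threshold (-0.17). sks15, named for its likeness to SKU5, was at 355, 300 and 269 against 108, 20.6 and 65.6 (2.17 ± 0.40, adjusted p = 0.00421). Of the 22 expansins and xyloglucan enzymes these were XTH32 and EXLA2 (1.06, adjusted p = 0.0494), and none was lower. The count was 1 under median centring, without UAS-JKD 2 or without UAS-JKD 3.

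**Figure D5:**
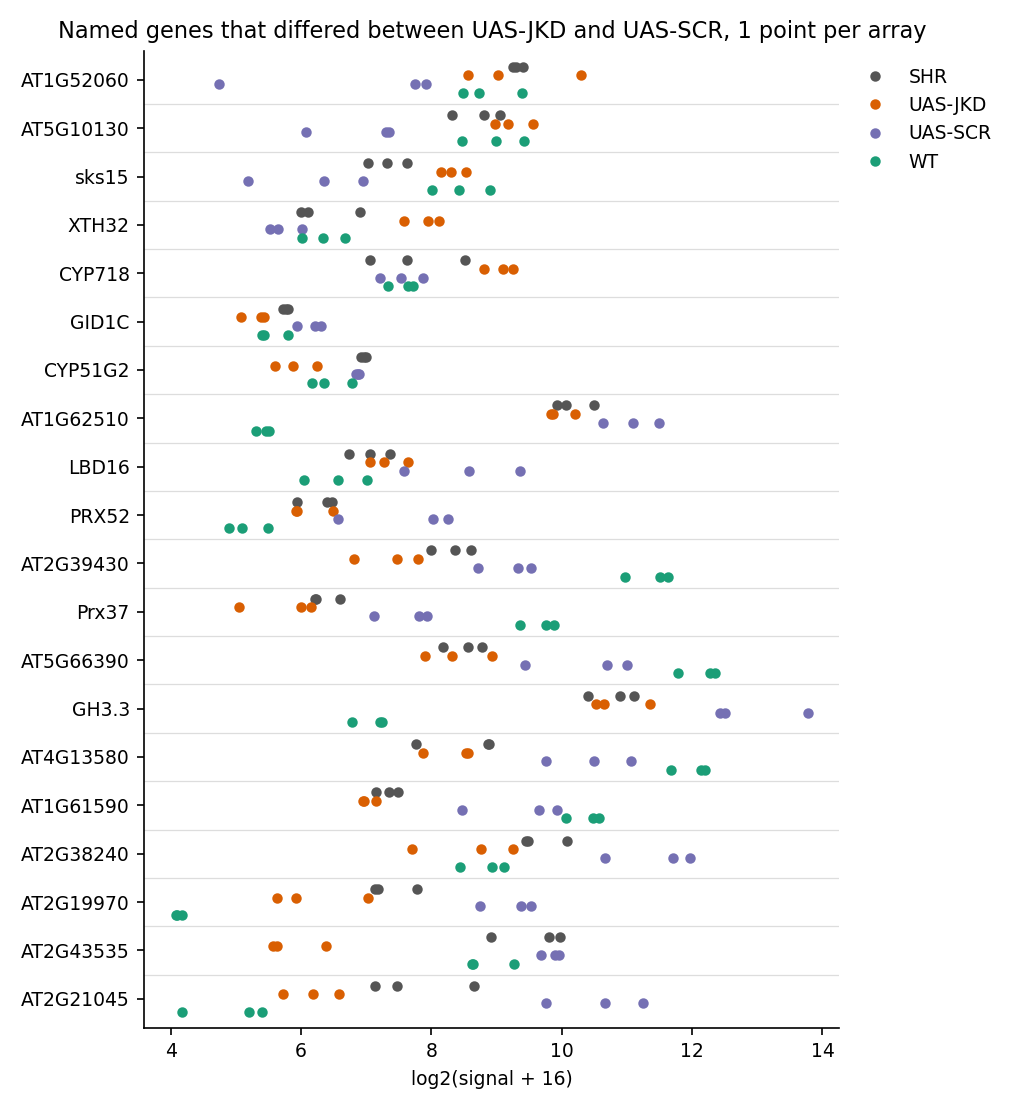
Signal of the named genes called between UAS-JKD and UAS-SCR on the log2(signal + 16) scale, 1 point per array, with SHR and WT beside them. The UAS-JKD points of AT2G43535 lie near 6 and those of the 3 other groups above 8.5, and the endodermis genes AT1G61590, AT4G13580 and AT2G39430 rank UAS-JKD and SHR lowest and WT highest.

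Endodermis genes separated the 2 lines. AT1G61590 was at 107, 109 and 126 in UAS-JKD, 956, 338 and 790 in UAS-SCR and 164, 126 and 147 in SHR (-2.33 ± 0.34 against UAS-SCR, adjusted p = 0.000489). AT4G13580 was at 361, 218 and 353 against 2121, 851 and 1430 (-2.12 ± 0.38, adjusted p = 0.00374), and AT2G39430 at 206, 96.4 and 162 against 725, 405 and 626 (-1.83 ± 0.32, adjusted p = 0.00285). None of these arrays overlapped between the lines, and WT was above both, at 1057 to 1514 for AT1G61590. The other 3 of the 6 tested genes were not called. In a fit on the 6 arrays alone no gene of the list was called, with adjusted p of 0.0542, 0.0588 and 0.0604 for these 3. The summed signal of the list was 1409 to 1753 in UAS-JKD and 2551 to 5189 in UAS-SCR.

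Of the 5 tested class III peroxidases matched by name, enzymes that build and cross-link walls, 3 were lower than in UAS-SCR. PRX72 (AT5G66390), which acts in lignin, was at 303, 223 and 471 against 2025, 678 and 1648 in UAS-SCR (-2.0 ± 0.42, adjusted p = 0.0142). Prx37 was at 48.1, 17.0 and 55.2 against 228, 124 and 208 (-1.89 ± 0.32, adjusted p = 0.00216), and PRX52 differed by -1.50 ± 0.35 (adjusted p = 0.0262). Without UAS-JKD 1 or without UAS-SCR 1, only 1 of the 3 was called. PRX72 was lost without UAS-JKD 1 (0.0532), UAS-JKD 2 (0.0714) or UAS-SCR 1 (0.0793), and PRX52 without UAS-JKD 1 (0.107), UAS-JKD 3 (0.0643), UAS-SCR 1 (0.141) or UAS-SCR 3 (0.0922). With the replicate block on 6 arrays PRX52 was not called (0.0596). Against SHR neither these nor Prx37 were called, at -0.13, -0.15 and -0.62.

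The auxin genes that differed between the lines were not those called against SHR. GH3.3 was at 1458, 1593 and 2600 in UAS-JKD, 5819, 5503 and 14016 in UAS-SCR and 2198, 1334 and 1878 in SHR (-2.06 ± 0.37 against UAS-SCR, adjusted p = 0.0036). WT was far below all of them, at 132, 93.9 and 136. LBD16, which starts lateral root founding, was at 184, 118 and 138 against 367, 176 and 644 (-1.19 ± 0.32, adjusted p = 0.0494), and the groups overlapped. That call did not hold without any of UAS-JKD 1 (0.0737), UAS-JKD 2 (0.168), UAS-JKD 3 (0.0894), UAS-SCR 1 (0.136) or UAS-SCR 3 (0.179), nor under either other scaling. The gibberellin receptor GID1C (-0.85 ± 0.22, adjusted p = 0.038) and the cortex gene AT1G62510 (-1.11 ± 0.27, adjusted p = 0.0298) were lower, both lost under median centring. GID1C was lost without any single array of UAS-JKD and without UAS-SCR 1 or 3 (0.0536 to 0.153), and AT1G62510 without any array of UAS-JKD and without UAS-SCR 2 or 3 (0.0506 to 0.111). Of the P450 genes, CYP718 was higher (1.51 ± 0.36, adjusted p = 0.0269) and CYP51G2 lower (-0.96 ± 0.19, adjusted p = 0.00714). CYP51G2 was not called in the fit on 6 arrays with the replicate block (adjusted p = 0.0594) or without it (0.201). CYP718 was lost without any of UAS-JKD 1, 2 and 3 and UAS-SCR 1 and 2 (0.0537 to 0.115). Of the 69 plastid-encoded genes 6 were lower, with a median of -0.52, and 1 or 2 without UAS-JKD 1, UAS-SCR 1 or UAS-SCR 2. Of the 29 UDP-glycosyltransferases, UGT72B3 (-1.35) was lower. Family lists hold only genes matched by symbol or synonym. AT1G52060 (2.49) was thus outside the jacalin list, which ran from -0.19 to 0.32 against UAS-SCR. No gene of the lists of root hairs, flavonoids, glutathione S-transferases, WRKY factors, wound response, cell division, histones, jacalins or glucosinolates was called between the lines in the 24-array limma fit without a block. GSTU18 lay at the threshold there, at 64.6, 70.4 and 124 in UAS-JKD against 181, 173 and 385 (-1.31 ± 0.35, adjusted p = 0.0508). It was called with the replicate block in the 24-array fit (adjusted p = 0.0464) and in the fit on 6 arrays (0.00407), under quantile normalization (0.0485), and without UAS-JKD 3 (0.0327) or UAS-SCR 2 (0.0491). The gibberellin receptor GID1B (-0.78) was called only with the block on 6 arrays (adjusted p = 0.0323).

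Against the mean of the other 5 UAS lines 3805 probe sets were called (24.1%), 2066 higher (13.1%) and 1739 lower (11%). At 2-fold or more the call took 673 (4.27%), of which 516 were higher and 157 lower (0.995%). Without UAS-JKD 2 the count was 2348, without UAS-JKD 3 it was 2417, and without UAS-JKD 3 and UAS-SCR 3 it was 3027. The mean of 5 lines holds both control profiles, since UAS-SCR is 1 of them. AT2G39040 was at 659, 484 and 845 in UAS-JKD and 34.0 to 352 over the other lines (2.56 ± 0.28, adjusted p = 4.09e-06). AT5G60520 was at 401, 239 and 281 in UAS-JKD and 26.3 to 111 in the other lines (2.04 ± 0.27, adjusted p = 3.17e-05). In both genes no array of another line reached those of UAS-JKD, which the rule for named genes required. AT5G60520 was also higher than UAS-SCR (2.06) and SHR (1.22), the latter call being lost without SHR 2_3 (adjusted p = 0.0523). AT3G49960 (2.41) and AT4G25250 (2.09) completed the 4 highest. The 4 lowest were AT2G43535 (-4.02 ± 0.21), AT2G40010 (-2.72 ± 0.23), AT2G43620 (-2.54 ± 0.29) and AT2G43800 (-2.08 ± 0.23).

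All 4 of these lowest loci carry the tag of chromosome 2, and a look at positions was taken after that had been seen. Of 1261 tested genes on chromosome 2, 36 were lower than the other 5 lines at 2-fold or more, which is 2.85%, against 0.288% to 1.03% on the other 4 nuclear chromosomes. Against UAS-SCR it was 23 of 1261, or 1.82%, against 0.288% to 1.02%. Against SHR chromosome 2 held 8.49% and the others 7.21% to 8.40%. In the upward direction against the other 5 lines, chromosome 2 held 4.12% and the others 2.38% to 3.3%. Upward against UAS-SCR it held 0.476% and the others 0.231% to 0.579%. Of the 100 genes called at 2-fold against UAS-SCR, 10 pairs lay within 5 genes of each other and 9 of these differed in the same direction. AT2G19970 and its neighbour PR-1-LIKE were lower by 3.01 and 2.06 on the log2 scale, AT1G72840 and AT1G72850 by 2.11 and 2.48, and AT5G43030 and AT5G43040 were higher by 2.67 and 2.06. The pair that did not was AT2G43535 and AT2G43550, at -3.98 and 1.31. The share of such pairs over all tested genes was not counted. Of the 175 probe sets called at 2-fold against UAS-SCR 115 were lower, so pairs in the same direction are partly built in. These counts are a description with no test.

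Against WT 4931 probe sets were called (31.3%), 2869 higher and 2062 lower. Under median centring, which moved the median difference of all probe sets from 0.00 to -0.12, the split was 2112 higher and 3068 lower, so the share of higher calls went from 58.2% to 40.8%. WT differed from UAS-JKD in both actin ratio and spike-ins, so this contrast cannot be told apart from the control profile either. Of the 6 endodermis genes 4 were lower than WT: AT2G39430 (-4.01), AT4G13580 (-3.68), AT1G61590 (-3.35) and GSO1 (-1.17). AT4G34600 was higher (1.06), and AT4G28100 was not called (-0.37). The cortex gene AT1G62510 was at 1165, 894 and 913 in UAS-JKD and 23.7, 28.1 and 29.4 in WT (4.54 ± 0.27), and SHR was at 1423, 953 and 1058. AT2G48130, of the suberin list, was at 31.7, 42.8 and 36.8 in UAS-JKD and 515, 326 and 597 in WT (-3.18 ± 0.24), with SHR at 30.8, 29.2 and 17.4.

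The two-cycle arrays of WT and SHR, which no other comparison uses, called 4122 of 14331 probe sets (28.8%), 2125 higher in WT and 1997 lower. Without WT 1 the count was 1585, without WT 3 it was 1753 and without SHR 2 it was 1989. Of the 2040 higher in WT that were tested in the one-cycle fit, 263 were higher in UAS-JKD than in SHR (12.9%) and 713 lower (35%), with a median of -0.32. Of the 1949 lower in WT, 768 were higher (39.4%) and 168 lower (8.62%), with a median of 0.41. In both lists more members were not called than were called in UAS-JKD against SHR, 1064 of the first and 1013 of the second. Of the second list, 948 were higher than SHR in UAS-SCR (48.6%), 806 in UAS-NUC (41.4%) and 516 in UAS-IME (26.5%), which share the SHR arrays. Over all 15777 probe sets 3955, 3172 and 2081 were higher than SHR in these 3 lines. In those arrays the actin 3' over 5' ratio was -2.47 ± 0.13 in WT and 2.78 ± 0.42 in SHR, and the ratio was again higher in UAS-JKD than in one-cycle SHR, as given above. The part of the ratio in these counts was not tested. For one-cycle WT against SHR the counts were 453 higher (22.2%) and 190 lower (9.31%) of the first list, and 282 higher (14.5%) and 515 lower (26.4%) of the second. Over all 15777 probe sets 2682 were higher and 2763 lower there. For UAS-JKD against UAS-SCR the first list gave 23 higher (1.13%) and 37 lower (1.81%) and the second 24 (1.23%) and 61 (3.13%). The shares over all probe sets were 0.944% and 1.39%.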

How the data were processed

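RNA of sorted root cells was hybridised to single-colour ATH1 arrays. The deposited values are linear intensity values. The submitters' processing notes name MAS5 as the tool of the authors, without a version, and its detection calls were not used. Scaling was kept as deposited (2% trimmed means near 250). Samples were grouped and numbered by their labels. Tests used limma 3.58.1 (lmFit, then eBayes with an intensity trend) under R 4.3.3 on log2(intensity + 16), which understates changes of dim probe sets. One fit held 24 one-cycle arrays in 8 groups and a second the 6 two-cycle arrays. Probe sets above the 40th percentile of all values in at least 3 arrays were kept. The number of arrays (3 per group) limits the precision. No columns were identical. Fits were tested on simulated data.

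Of 22810 probe sets, 64 were controls; 13513 had 1 gene in the platform annotation, 503 several and 8730 none, and the locus of 13484 was found in the RefSeq genes of TAIR10.1, which gave symbols and gene order. Neither table gave product names, so families were matched on symbols and synonyms, and ethylene response factors and terpene synthases had 0 tested members, and 17 of the 30 lists at least 3. The build of the arrays' annotation is not stated, and no coordinates are given.

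Named genes are the genes of the labels, the 12 highest and 12 lowest against SHR and 4 and 4 in the comparisons with UAS-SCR and with the other 5 lines (called, at least 2-fold, 1 gene, unshared probe set, mean of the higher group above the median of tested probe sets, no overlap), and up to 4 called members per list by adjusted p, or 2 as values. Further list members named, AT1G14580, the neighbouring pairs, and genes set against WT were chosen from their values. The comparison, lists and members were chosen with earlier results of these data known.

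Deviations from the group means correlated between same-numbered arrays of UAS-JKD and UAS-SCR at r = 0.22, 0.14 and 0.48. All of these were positive, and the block is given for that comparison. The values were -0.09, 0.18 and -0.05 for UAS-JKD and SHR, and -0.20, 0.23 and 0.05 for UAS-JKD and WT. Single values there were as high as the lower ones for UAS-SCR. Arrays of unlike number were not compared, so a pairing of the arrays is not established. Alternatives tried were quantile normalization, median centring, pseudocounts of 1 and 64, no filter and a 60th percentile filter, no trend, the replicate block, smaller fits and leaving out each array.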

Additional observations from a re-analysis of the deposited data

Results flagged for a closer look

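Each result here is a difference between the responses of UAS-JKD and UAS-SCR to the same contrast with SHR, tested directly in limma, since the SHR arrays cancel. In all, 368 probe sets passed. Higher in UAS-JKD, on the log2 scale, were AT1G52060 (2.49), AT5G10130 (2.32), sks15 (2.17), XTH32 (2.16) and CYP718 (1.51).

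Lower in UAS-JKD were AT2G21045 (-4.40), AT2G43535 (-3.98), AT2G19970 (-3.01) and AT2G38240 (-2.87). The endodermis genes AT1G61590 (-2.33), AT4G13580 (-2.12) and AT2G39430 (-1.83), the peroxidases PRX72 (AT5G66390, -2.0), Prx37 (-1.89) and PRX52 (-1.50), the auxin genes GH3.3 (-2.06) and LBD16 (-1.19), the cortex gene AT1G62510 (-1.11), CYP51G2 (-0.96) and the gibberellin receptor GID1C (-0.85) were lower as well. LBD16, GID1C, CYP718, AT1G62510, PRX52 and PRX72 each lost the call without any of several single arrays, and AT1G52060 without UAS-JKD 3, as given with their values above. CYP51G2 (adjusted p = 0.0594) and PRX52 (0.0596) were not called with the replicate block on 6 arrays.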

How the results depend on the processing

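Counts of calls stayed within 1.5 times under the planned settings except as follows. For UAS-JKD against UAS-SCR the 6 arrays alone gave 15, and leaving out 1 array gave 180 to 419. Against the other 5 lines leaving out 1 array gave 2348 to 2764, and leaving out UAS-JKD 3 and UAS-SCR 3 gave 3027. In the two-cycle arrays leaving out 1 gave 1585 to 3498, and the replicate block 2657. Leaving out 1 array gave 5405 to 6741 for UAS-JKD against SHR and 3616 to 4289 against WT. With fewer arrays the fits have fewer residual degrees of freedom; other causes were not tested. The replicate block in the 24-array fit gave 7314 calls against SHR, 373 against UAS-SCR, 3846 against the other lines and 4902 against WT, and it called 6896 against SHR on 6 arrays. The paired fit of the 6 UAS-JKD and UAS-SCR arrays, chosen after seeing the data, gave 363; 202 of these are 54.9% of the 368 calls, and PRX52 (adjusted p = 0.0596) and CYP51G2 (0.0594) were not called in it.

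Of 3816 alternative values of 124 named genes, 3656 kept their side of the threshold, 108 lost the call, 52 gained it, and none changed sign while called. The JKD probe set, not called against UAS-SCR (-0.75, adjusted p = 0.0729), was called under quantile normalization (0.045), with a pseudocount of 64 (0.0463) and without UAS-SCR 3 (0.00717). Whether dim signals lay above background was not tested.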

Other observations

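Several lists held no call between UAS-JKD and SHR. None of 5 tested gibberellin genes was called, with the receptors GID1A, GID1B and GID1C at -0.09, 0.60 and -0.47 and the F-box genes SLY1 and SLY2 at -0.27 and -0.48. GID1C was called under quantile normalization (adjusted p = 0.00552) and GID1B without UAS-JKD 2 (0.0453). The stem cell genes AGL42 (0.01) and BBM (-0.09), the vascular gene LHW (-0.37), the suberin gene AT2G48130 (0.36) and the heat shock genes AT1G53540 (-0.83) and AT3G09440 (0.14) were not called. In the lists of MYB factors, pectin enzymes and aquaporins, MYBC1 (0.48), AT5G47390 (0.19), ATPMEPCRB (0.77), PMEPCRF (-0.04) and AQI (-0.07) were not called. ATPMEPCRB was called under quantile normalization (adjusted p = 0.0473) and without SHR 2_1 (0.0414), and a fit on the 6 arrays alone called ATPMEPCRB (0.0107), AT1G53540 (0.0126) and MYBC1 (0.0466). The summed signal of the 2 stem cell genes was 140 to 210 in UAS-JKD and 135 to 218 in SHR, and that of LHW 152 to 297 and 255 to 361. A p that misses the threshold does not show that these genes were alike in the groups.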
